A study of Mus musculus with 18 samples.

Results

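The genes of the nuclear lamina and of the LINC complex were read from RNA-seq of whole descending aortas of 18 male mice on the C57BL/6 strain. The 10 genes were chosen by name (Lmna, Lmnb1, Lmnb2, Lbr, Emd, Sun1, Sun2, Syne1, Syne2 and Zmpste24) and not by their values, though earlier results of these data were known. All 10 were found among the 54281 genes of the table. There were 6 mice in each of 3 groups. The HGPS mice had the genotype LMNAG609G and were 64 to 75 d old, the 2-mo WT mice were 62 d old except for 1 mouse of 95 d, and the aged group (24-mo WT) spanned ages of 609 to 762 d. HGPS is Hutchinson-Gilford Progeria Syndrome, a disease of premature aging, and in this model both copies of Lmna carry a knock-in mutation at the endogenous locus, so that every Lmna-expressing cell of the animal can make progerin. The WT mice were purchased and not described as littermates, and the labels name no treatment. The vessels held the intimal, medial and adventitial layers together.

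The nuclear lamina is a meshwork of lamin filaments under the inner nuclear membrane. A-type lamins (lamin A and lamin C) both come from Lmna, whereas the B-type lamins come from Lmnb1 and Lmnb2. Emerin and the lamin B receptor anchor the lamina and chromatin to the inner membrane, and SUN proteins span that membrane and bind nesprins of the outer membrane. Together SUN proteins and nesprins form the LINC complex, which couples the nucleus to the cytoskeleton and is much studied in contractile and stretched tissues such as the arterial wall. Prelamin A is farnesylated at its C-terminus and then cleaved by the metalloprotease ZMPSTE24. Progerin lacks the cleavage site and keeps its farnesyl group.

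The sequences that matter for this biology are the codon that the HGPS allele changes and the codons of the farnesylation motif. In the reference annotation (GENCODE M21, GRCm38) codon 609 of the lamin A transcript Lmna-201 lies in exon 11 of 12, within chr3:88482475-88482504 on the minus strand. The HGPS allele alters this glycine codon without altering the amino acid, and it activates a splice site inside the exon. The reference sequence is shown with codon 609 in capitals, since the mice's own reads were not analysed here:
Lmna codon 609 window: ggagcccaggtgGGCggatccatctcctct
The last coding bases of lamin A and lamin B2 are shown because both end in the motif that farnesyltransferase recognises, with the codons of the last 4 residues in capitals. The Lmna bases join exons and lie within chr3:88482077-88482351, and the Lmnb2 bases lie at chr10:80902862-80902891 on the minus strand:
Lmna end of coding sequence: agccagagctcccagaacTGCAGCATCATG
Lmnb2 end of coding sequence: aggactacctcaaggggcTGCCGACTGATG
The lamin C transcript Lmna-203 ends after 574 codons and has no codon 609, whereas Lmna-201 has 665 codons. The table gives 1 estimated count per gene, so lamin A, lamin C and progerin transcripts are summed in every Lmna value, and the Lmna level does not check the genotype.

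The libraries held 12413229 to 30844775 counts, and the HGPS libraries had the highest median (22752394 against 18031579 in 2-mo WT and 17964166 in 24-mo WT). Smooth muscle markers were present in every mouse (Myh11 3411 to 11340 CPM, a count relative to the TMM-scaled library total), as were fibroblast (Dcn 1124 to 2405 CPM) and endothelial markers (Pecam1 166 to 773 CPM). Several marker lists moved with the HGPS group by edgeR's quasi-likelihood test. All 8 macrophage markers were higher in HGPS than in 2-mo WT (summed 596 to 912 CPM against 335 to 510), as were all 8 cell cycle genes (35.8 to 63.5 against 9.66 to 18.2), all 8 brown fat genes (460 to 1700 against 108 to 601) and 7 of 8 white fat genes (919 to 2710 against 205 to 1130). By contrast, 5 of 8 smooth muscle genes were lower (19700 to 27400 against 29500 to 38100), as were 5 of 8 fibroblast genes (2940 to 4710 against 4420 to 5410). Of 6 nerve genes tested, 3 were lower and 2 higher, and the list sums did not overlap (426 to 564 against 649 to 761). Of 8 skeletal muscle genes only 3 had enough counts to test, with 1 higher and 1 lower (2.39 to 3.82 against 2.44 to 4.54). The skeletal muscle score that enters some fits below thus rests on 3 genes with low counts that moved in both directions. The part of these shifts in the results on the 10 genes was not tested beyond the fits with marker scores given with those results. In whole tissue, fewer cells of a type and less RNA per cell cannot be told apart.

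Of the 10 genes, Lmna and Lmnb2 rose in HGPS aortas, Sun1, Syne1 and Syne2 fell, and the other 5 did not pass the test. A gene passed when edgeR's adjusted p, taken over 15210 genes, was under 0.05. Such a count has to be read against the whole transcriptome, in which 22% of genes rose and 21.2% fell in HGPS against 2-mo WT, so 2 and 3 of 10 are near the background. In edgeR the study's stricter cut-offs (adjusted p under 0.001 and at least 1.5-fold) were met by Syne2 alone, beside 9.50% of all genes. The study applied them to DESeq2, in which Syne1 met them here as well (log2 fold change -0.5872, adjusted p = 0.000938). The share of all genes that met them in DESeq2 was not counted. In 3 genes the 6 HGPS mice did not overlap the 6 2-mo WT mice, beside 21.9% of all genes. The median log2 fold change of the 10 genes was 0.05, and that of all genes was 0.00261.

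In 24-mo WT against 2-mo WT, Lmnb2 was the only gene of the 10 to pass, and it rose. Over all genes 6.29% rose and 5.38% fell with age. No gene of the 10 met the study's cut-offs, which 2.00% of all genes did, while 2 had an unadjusted p under 0.05 in edgeR and DESeq2 put 1 past an adjusted p under 0.05. None was without overlap between the groups, beside 6.28% of all genes. Of the marker lists, 4 of 8 fibroblast genes were lower with age (summed 3570 to 4730 CPM against 4420 to 5410), and of the 6 nerve genes tested 3 were higher and 1 lower (639 to 817 against 649 to 761). Of the 3 skeletal muscle genes tested, 1 was higher (4.23 to 7.85 against 2.44 to 4.54). In smooth muscle and in white fat, 1 of 8 genes was higher, with overlapping sums. The part of these shifts in the aging results was not tested beyond the fits with marker scores. The 2 comparisons share their control mice and are given side by side. The difference between them is the contrast of HGPS with 24-mo WT, in which Lmna and Lmnb1 were higher in HGPS and Sun1, Syne1 and Syne2 were lower. In that contrast 23.8% of all genes were higher in HGPS and 23.6% lower in edgeR. There 12.1% met the study's cut-offs (Syne1 and Syne2 among them), and 22.2% did not overlap (Sun1, Syne1 and Syne2 among them). In DESeq2 Lmnb1 met those cut-offs as well (log2 fold change 1.02, adjusted p = 8.3e-05).

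**Figure D1:**
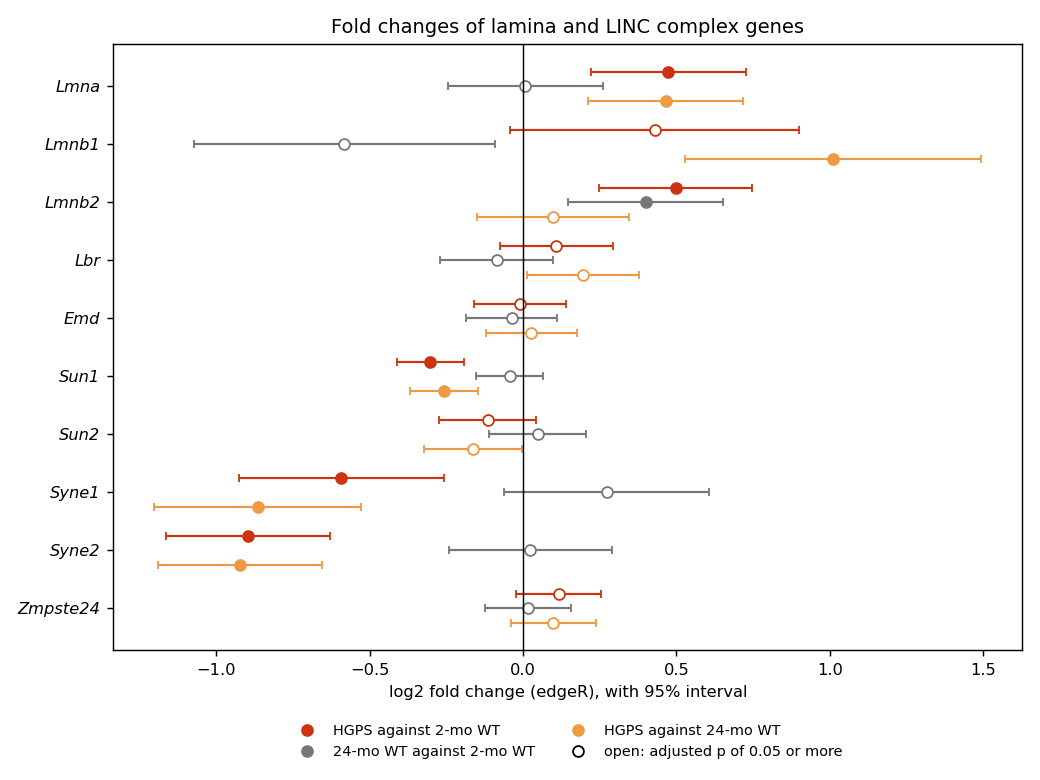
Log2 fold changes of the 10 genes with 95% intervals (x axis) in the 3 comparisons, from edgeR; filled points have an adjusted p under 0.05. Lmna and Lmnb2 lie to the right and Sun1, Syne1 and Syne2 to the left in HGPS against 2-mo WT, whereas the aging contrast has a filled point for Lmnb2 alone.

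Per length, as CPM per kb of annotated exons, the genes formed 3 tiers. In 2-mo WT aortas Sun2 (96.6 ± 10.9, SD, n = 6) and Lmna (71.2 ± 10.4) stood far above the rest. The lowest Sun2 value of these mice (83.9) was barely above their highest Lmna value (83.3). That separation depends on the length used. With the longest annotated transcript as the length, the 2-mo WT means were 118.6 ± 13.4 for Sun2 and 105.3 ± 15.4 for Lmna, and the mice overlapped. A middle tier ran from Emd (16.7 ± 1.45) and Sun1 (16.3 ± 0.571) through Lbr (12.2 ± 0.959) and Syne1 (11.2 ± 1.13) to Zmpste24 (10.04 ± 0.658) and Syne2 (9.79 ± 0.641). The B-type lamins were lowest, with Lmnb2 at 1.48 ± 0.212 and Lmnb1 at 1.21 ± 0.319. The ranges of the mice overlapped between Emd and Sun1, from Lbr down to Syne2, and between the B-type lamins, so that neighbours there cannot be ordered.

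In HGPS aortas the order differed at the top and in the middle. Lmna (98.9 ± 14.1 CPM per kb) had a higher mean than Sun2 (89.2 ± 6.08), but their ranges overlapped. Zmpste24 (10.9 ± 0.729) was above Syne1 (7.44 ± 0.678), and Syne1 was above Syne2 (5.25 ± 0.738), in each case with all mice apart. In 24-mo WT the order was that of 2-mo WT except that Syne1 (13.6 ± 4.90) had a higher mean than Lbr (11.5 ± 1.44), again with overlapping mice. The order within the middle tier also depends on which exons are counted as transcribed. With the longest transcript as the length, 5, 2 and 4 genes took another rank in 2-mo WT, HGPS and 24-mo WT, all of them in the middle tier.

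**Figure D2:**
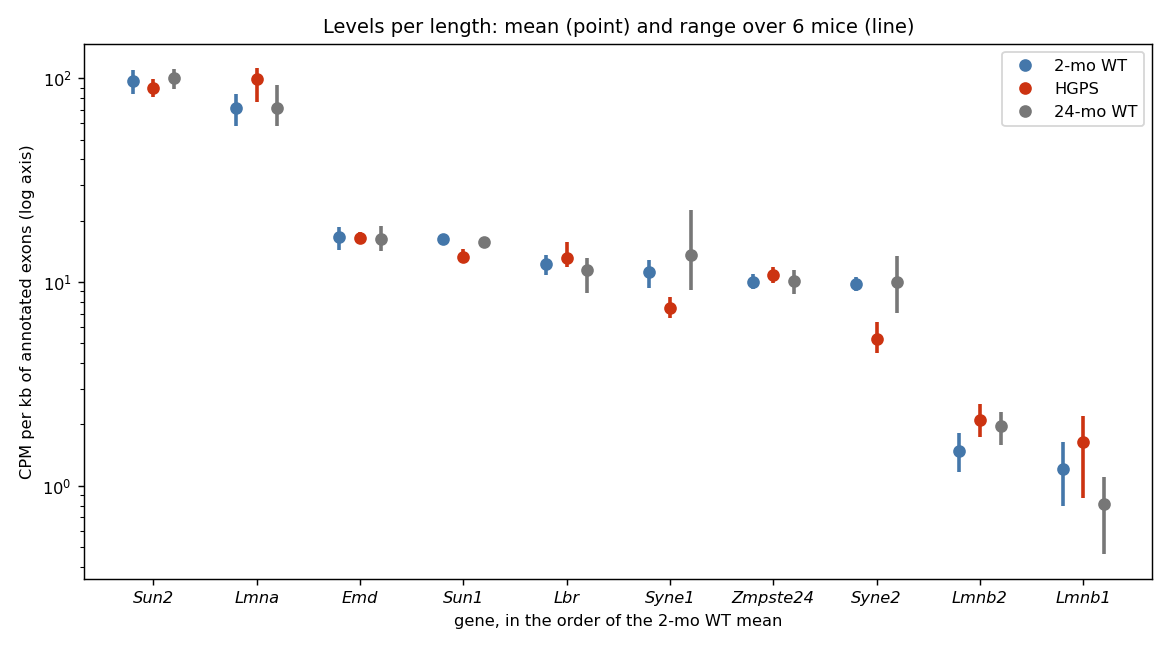
Level of each gene as CPM per kb of annotated exons (log axis), with the mean of 6 mice as a point and their range as a line. Lmna and Sun2 sit highest and the B-type lamins lowest in all 3 groups, and the Syne1 and Syne2 points of HGPS fall below those of both WT groups.

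Lmna (chr3:88480147-88509956, minus strand) encodes the A-type lamins and carries the HGPS mutation. Its level ranged from 341 to 486 CPM in 2-mo WT (median 418), from 445 to 653 CPM in HGPS (median 599.5) and from 341 to 539.9 CPM in 24-mo WT (median 404). Of the 6 HGPS mice, 4 were above every WT mouse of either age, and the other 2 lay within the range of 24-mo WT. Lmna rose 1.39-fold in HGPS against 2-mo WT (log2 fold change 0.47 ± 0.12, SE, edgeR adjusted p = 0.00383). With age the log2 fold change was 0.01 (95% interval -0.24 to 0.26, edgeR adjusted p = 0.978), and HGPS was above 24-mo WT by 0.47 ± 0.12 (adjusted p = 0.00373). When scores of brown fat and skeletal muscle markers entered the fit, the HGPS change was 0.44 with an adjusted p of 0.0991.

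**Figure D3:**
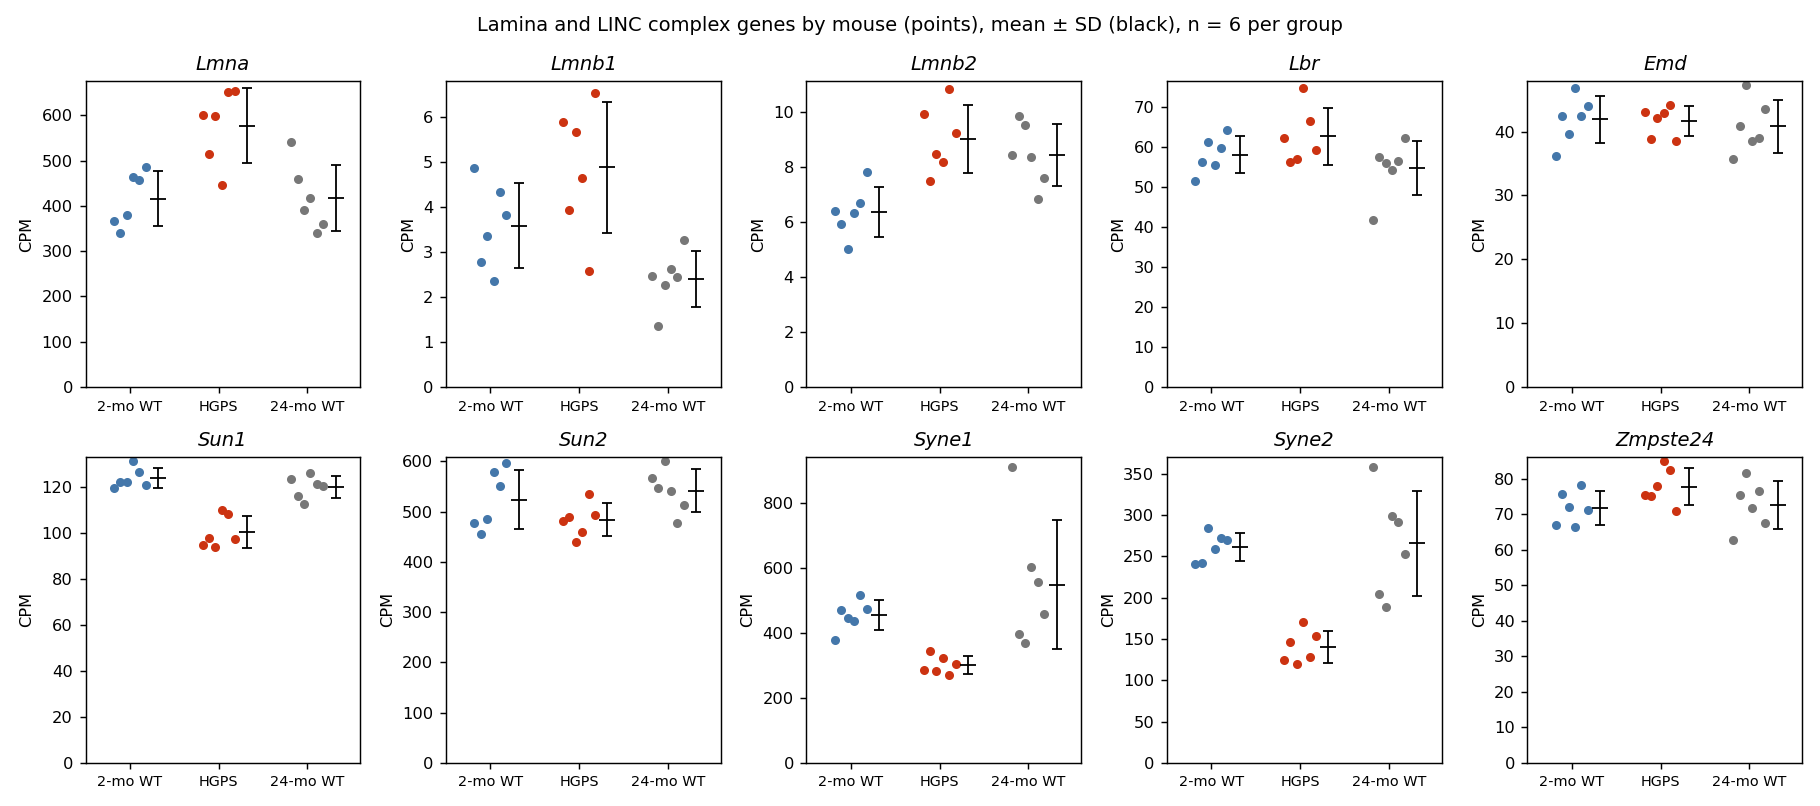
CPM of each gene in each mouse (y axis from 0), with 1 point per mouse and the mean ± SD in black. The HGPS points of Sun1, Syne1 and Syne2 lie below all 2-mo WT points, and 1 24-mo WT mouse stands at 910.1 CPM of Syne1.

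Lmnb2 (chr10:80901203-80918245, minus strand), which encodes lamin B2, rose in both HGPS and aged aortas. It ranged from 5.03 to 7.80 CPM in 2-mo WT (median 6.36), from 7.47 to 10.8 CPM in HGPS (median 8.83) and from 6.83 to 9.83 CPM in 24-mo WT (median 8.39). The highest 2-mo WT mouse overlapped the lowest mice of the other groups. The log2 fold change was 0.50 ± 0.12 in HGPS (1.41-fold, edgeR adjusted p = 0.00247) and 0.40 ± 0.12 with age (1.32-fold, edgeR adjusted p = 0.0359). HGPS and 24-mo WT differed by 0.10 (95% interval -0.15 to 0.35, adjusted p = 0.517). The call with age is near the threshold: without any of 2-mo WT replicates 1 to 5 or 24-mo WT replicates 1 to 4 the edgeR adjusted p was 0.0529 to 0.0844.

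Lmnb1 (chr18:56707813-56753424, plus strand) encodes lamin B1, whose loss is used as a sign of senescence in cultured cells. It was the lowest of the genes, with 29 to 106 counts per mouse in 2-mo WT, 62 to 149 in HGPS and 19 to 53 in 24-mo WT. Scaled to depth, it ranged from 2.35 to 4.87 CPM in 2-mo WT (median 3.59), from 2.59 to 6.54 CPM in HGPS (median 5.16) and from 1.36 to 3.27 CPM in 24-mo WT (median 2.45). All 3 groups overlapped. Neither comparison with 2-mo WT passed: the log2 fold change was 0.43 ± 0.22 in HGPS (edgeR adjusted p = 0.132) and -0.58 ± 0.23 with age (adjusted p = 0.119). Set against each other, HGPS was 2.02-fold above 24-mo WT (log2 fold change 1.01 ± 0.23, edgeR adjusted p = 0.00138). HGPS replicate 5 was the lowest of its group at 2.59 CPM, and without it the HGPS change was 0.56 with an adjusted p of 0.0365. All 8 cell cycle genes were higher in HGPS than in 24-mo WT (summed 35.8 to 63.5 against 9.20 to 19.2 CPM). With macrophage and cell cycle scores as covariates the Lmnb1 value in that contrast was -0.15 ± 0.49 (SE, edgeR adjusted p = 0.921). The macrophage sums did not overlap either (596 to 912 against 303 to 585 CPM). That fit can hardly separate the scores from the group, and it called 508 of all genes. With brown fat and skeletal muscle scores the Lmnb1 value was 0.75 (adjusted p = 0.102), also not past the test.

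Emd (chrX:74254687-74261548, plus strand), which encodes emerin, had the smallest change of the 10 genes in HGPS against 2-mo WT. Its medians were 42.4 CPM in 2-mo WT (36.2 to 46.8), 42.5 CPM in HGPS (38.6 to 44.1) and 39.9 CPM in 24-mo WT (35.7 to 47.3). The HGPS log2 fold change of -0.01 had a 95% interval of -0.16 to 0.14 (edgeR adjusted p = 0.928), and that with age was -0.04 (-0.19 to 0.11). Lbr (chr1:181815335-181843046, minus strand) encodes the lamin B receptor, which also has sterol reductase activity. It ranged from 51.5 to 64.3 CPM in 2-mo WT (median 58.1), from 56.2 to 74.9 CPM in HGPS (median 60.8) and from 41.9 to 62.3 CPM in 24-mo WT (median 56.4), and the groups overlapped. Its log2 fold change was 0.11 in HGPS (95% interval -0.07 to 0.29, adjusted p = 0.338) and -0.09 with age (-0.27 to 0.10). With brown fat and skeletal muscle scores as covariates the HGPS value of Lbr was 0.35 with an edgeR adjusted p of 0.03.

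Zmpste24 (chr4:121059237-121098241, minus strand), the protease that cleaves prelamin A, did not pass in any comparison. Its medians were 71.6 CPM in 2-mo WT (66.3 to 78.2), 76.6 CPM in HGPS (70.8 to 85.0) and 73.6 CPM in 24-mo WT (62.6 to 81.6). The log2 fold change in HGPS was 0.12 (95% interval -0.02 to 0.26, edgeR adjusted p = 0.173) and that with age 0.02 (-0.12 to 0.16). The intervals of Emd, Lbr and Zmpste24 leave out a 1.5-fold change in each direction in both comparisons with 2-mo WT.

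Of the SUN genes, Sun1 fell in HGPS and Sun2 did not pass. Both encode inner membrane proteins that reach across the perinuclear space to the nesprins. Sun1 (chr5:139200637-139249840, plus strand) ranged from 119.7 to 131 CPM in 2-mo WT (median 122), from 93.6 to 110.1 CPM in HGPS (median 97.5) and from 113 to 126 CPM in 24-mo WT (median 121). Every HGPS mouse was below every WT mouse of either age. Sun1 fell by 18.9% in HGPS against 2-mo WT (log2 fold change -0.30 ± 0.05, edgeR adjusted p = 0.000164) and differed from 24-mo WT by -0.26 ± 0.05 on the log2 scale (adjusted p = 0.000524), while the change with age was -0.04 (95% interval -0.15 to 0.07). With brown fat and skeletal muscle scores as covariates the difference from 24-mo WT was -0.17 with an adjusted p of 0.136.

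Sun2 (chr15:79724070-79742536, minus strand) ranged from 455 to 596 CPM in 2-mo WT (median 517), from 439.5 to 536 CPM in HGPS (median 486) and from 478 to 601 CPM in 24-mo WT (median 544). The 3 groups overlapped throughout. Its log2 fold change was -0.11 in HGPS (95% interval -0.27 to 0.04, edgeR adjusted p = 0.236), 0.05 with age (-0.11 to 0.21) and -0.16 in HGPS against 24-mo WT (-0.32 to -0.00, adjusted p = 0.0854).

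Both nesprin genes fell in HGPS. Syne2 (chr12:75818134-76110926, plus strand) encodes nesprin-2, a giant outer membrane protein that binds actin and motor proteins. It ranged from 241 to 284 CPM in 2-mo WT (median 265), from 119 to 170 CPM in HGPS (median 137) and from 189 to 359 CPM in 24-mo WT (median 272). All HGPS mice were below all WT mice of both ages. Syne2 fell by 46.3% in HGPS (log2 fold change -0.90 ± 0.13, edgeR adjusted p = 2.36e-05), while its change with age was 0.02 (95% interval -0.24 to 0.29), and HGPS differed from 24-mo WT by -0.92 ± 0.13 on the log2 scale (adjusted p = 1.11e-05).

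Syne1 (chr10:5020917-5551482, minus strand) encodes nesprin-1, its giant paralog. The level was 379.5 to 517 CPM in 2-mo WT (median 458), 270.5 to 344 CPM in HGPS (median 294) and 369.7 to 910.1 CPM in 24-mo WT (median 507). As for Syne2, the HGPS mice lay wholly below both WT groups. The log2 fold change was -0.59 ± 0.16 in HGPS against 2-mo WT (edgeR adjusted p = 0.00584) and -0.87 ± 0.16 in HGPS against 24-mo WT (adjusted p = 0.000219). With age it was 0.27 (95% interval -0.06 to 0.61, adjusted p = 0.305), and 0.07 without 24-mo WT replicate 1, the mouse at 910.1 CPM. Reads from the pseudogene Gm48836 inside Syne1 are a small share, with 465 counts over all 18 mice.

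Transcript length moved with these falls. Syne1 and Syne2 have the longest transcripts of the 10 genes (27908 and 21704 bases), and in HGPS against 2-mo WT the median log2 fold change over all genes declined from 0.23 in the 950 genes with transcripts under 1 kb to -0.20 in the 71 genes over 15 kb. Of the 365 genes with transcripts of at least 10 kb, 129 fell and 40 rose in HGPS, with a median of -0.16. Syne2 was among the 13 lowest of these and Syne1 among the 45 lowest. When the trend with length was taken off each library (an alternative chosen after seeing the data), Syne1 stood at -0.29 (edgeR adjusted p = 0.00542) and Syne2 at -0.63 (adjusted p = 1.11e-06) in HGPS against 2-mo WT, and at -0.38 (adjusted p = 0.000542) and -0.52 (adjusted p = 5.91e-06) in HGPS against 24-mo WT. The falls of both genes were thus smaller but still past the test.

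In single mice the long transcripts and the nesprin genes also moved together. The median deviation of the 365 long-transcript genes from their mean over all mice was highest in 24-mo WT replicate 1, at 0.39 on the log2 scale, the mouse with the highest Syne1 and Syne2. It was -0.29 to -0.03 in the HGPS mice and -0.08 to 0.10 in the 2-mo WT mice, which overlap. The deviations of Syne2 did not overlap between those groups, at -0.82 to -0.31 in HGPS and 0.19 to 0.43 in 2-mo WT. Smooth muscle genes were lower in HGPS as well (5 of 8, with sums that did not overlap), and their part in the fall of the nesprin genes was not tested. With macrophage and cell cycle scores as covariates, no gene of the 10 passed in HGPS against 2-mo WT in edgeR, and 2 had an unadjusted p under 0.05. Syne2 was then at -0.54 (adjusted p = 0.226), Syne1 at -0.12 (adjusted p = 0.875) and Sun1 at -0.17 (adjusted p = 0.494). That fit called 228 of all genes. The sums of both marker lists did not overlap between these groups, so that fit can hardly separate the scores from the group. The same holds against 24-mo WT, where Syne1 was at -0.37 (edgeR adjusted p = 0.571) and Syne2 at -0.57 (adjusted p = 0.207).

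**Figure D4:**
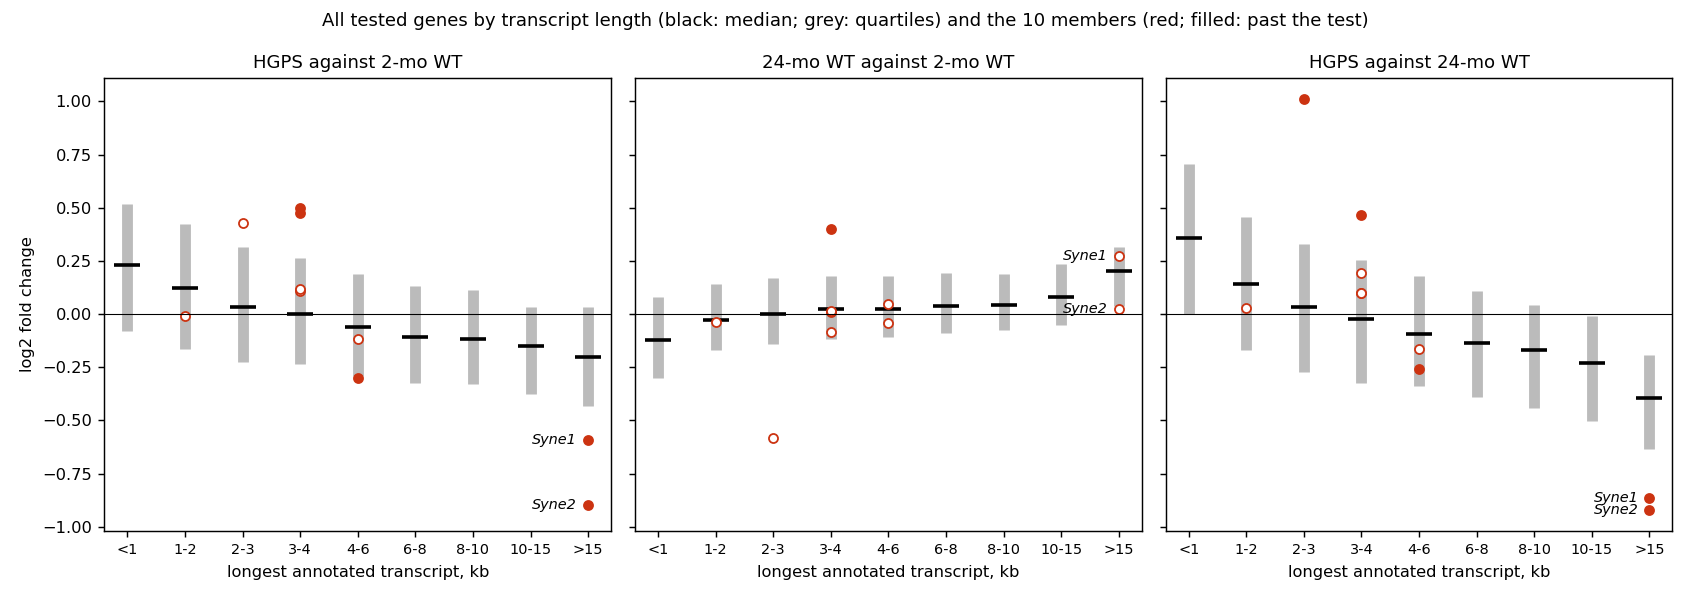
Log2 fold changes of all tested genes by the length of their longest annotated transcript (median and quartiles of each length class) and of the 10 genes (red points, filled where past the test) in the 3 comparisons. The medians decline with length in HGPS against 2-mo WT and rise with length in the aging contrast, and Syne1 and Syne2 sit below the lower quartile of their class in both HGPS contrasts.

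Ratios of genes within a library, which do not depend on the scaling between libraries, were compared by exact two-sided permutation tests with adjustment over 18 tests (6 ratios in 3 comparisons). The ratio of Lmnb2 to Lmna was higher in 24-mo WT than in both young groups, and no difference was detected between HGPS and 2-mo WT. The log2 ratio of Lmnb2 to Lmna per kb was -5.55 ± 0.16 in HGPS and -5.58 ± 0.17 in 2-mo WT (SD, n = 6 each, exact permutation p = 0.753). In 24-mo WT it was -5.18 ± 0.21, above 2-mo WT by 0.40 (exact p = 0.00866, adjusted p = 0.039) and above HGPS (exact p = 0.00866, adjusted p = 0.039). Lmna was thus a median of 47.9 times Lmnb2 per kb of annotated exons in 2-mo WT, 47.3 times in HGPS and 35.6 times in 24-mo WT. The level of such a ratio depends on the gene lengths used, whereas its log2 difference between groups does not. With the longest transcript as the length, the 2-mo WT means were 105.3 CPM per kb for Lmna and 1.80 for Lmnb2, in place of 71.2 and 1.48.

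Among the B-type lamins, the share of Lmnb1 was lower with age. The ratio of Lmnb1 to Lmnb2 per kb had a median of 0.826 in 2-mo WT (0.544 to 1.11), 0.842 in HGPS (0.349 to 1.03) and 0.441 in 24-mo WT (0.205 to 0.627). The difference on the log2 scale was -0.98 with age (exact permutation p = 0.00433, adjusted p = 0.039) and -0.08 in HGPS against 2-mo WT (exact p = 0.797). HGPS against 24-mo WT did not pass the adjustment (difference 0.90, exact p = 0.0195, adjusted p = 0.0584). The Lmnb1 to Lmna ratio did not pass in any comparison (adjusted p from 0.152 to 0.842, exact permutation tests).

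Between the nesprin genes, the ratio of Syne1 to Syne2 per kb was higher in HGPS, with a median of 1.45 (1.25 to 1.56) against 1.13 in 2-mo WT (1.04 to 1.28). The log2 difference was 0.32 (exact permutation p = 0.00649, adjusted p = 0.039), and the groups overlapped. In 24-mo WT the median was 1.28, which did not pass against 2-mo WT (exact p = 0.0195, adjusted p = 0.0584) or against HGPS (exact p = 0.312). The Lbr to Lmna and Sun1 to Sun2 ratios were lower in HGPS with exact p of 0.0455 and 0.0368, and neither passed the adjustment (adjusted p = 0.102 and 0.0946). The 4 ratio differences that passed lie close to the smallest p of 0.00216 that 6 mice against 6 allow. With 1 mouse left out their unadjusted p stayed at or under 0.0173, but their adjusted p reached 0.0779. Fewer mice also raise the smallest p that the permutation test allows, so the adjustment is then harder to pass whatever the separation.

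**Figure D5:**
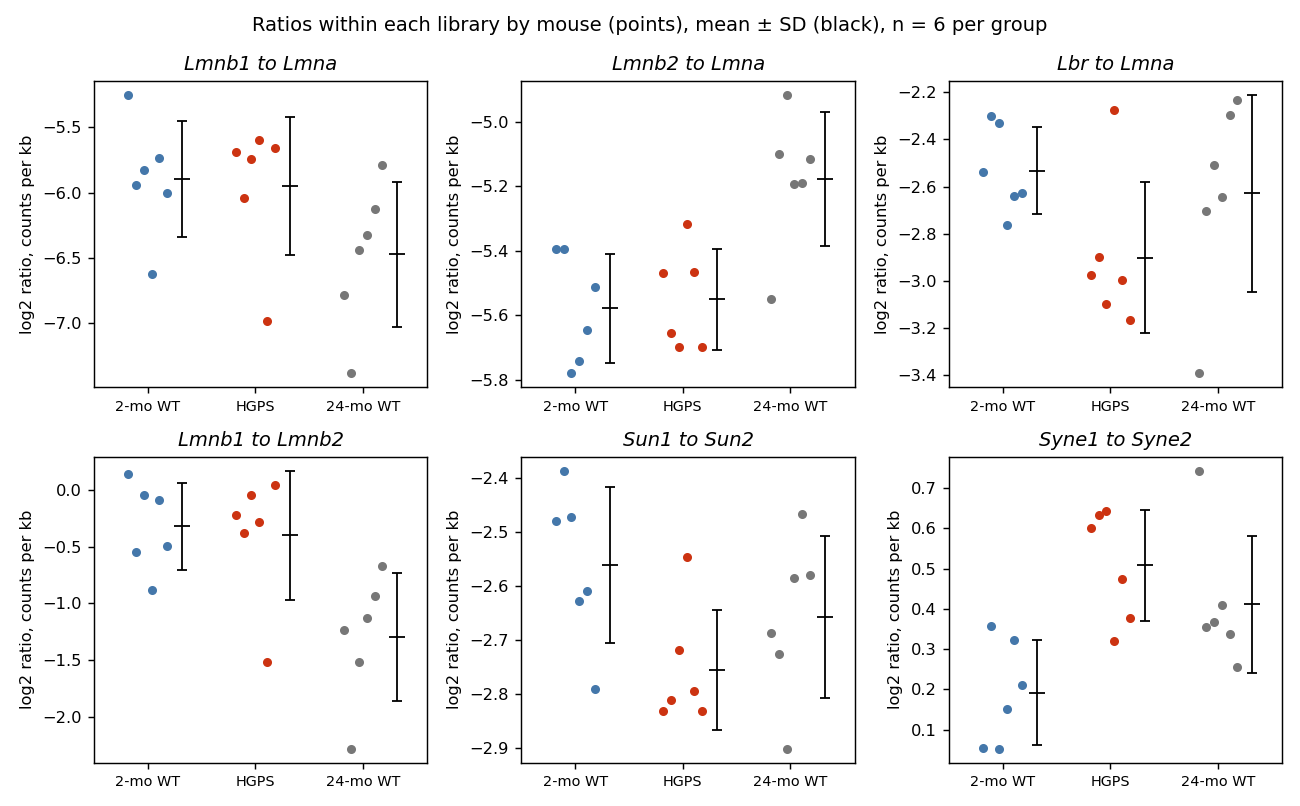
Log2 ratios of counts per kb within each library, with 1 point per mouse and the mean ± SD in black. The 24-mo WT mice lie low in Lmnb1 to Lmnb2 and high in Lmnb2 to Lmna, and the HGPS mice lie high in Syne1 to Syne2; HGPS replicate 5 stands apart in both Lmnb1 ratios.

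Partner genes of the lamina moved in both directions in HGPS. Of 15 inner membrane and chromatin partners, 4 rose and 3 fell, beside 22% and 21.2% of all genes (median log2 fold change -0.03, against 0.00261 over all genes). Tmem120a, an inner membrane protein known from fat cells, rose from 15.1 ± 2.93 to 25.5 ± 6.99 CPM (log2 fold change 0.75 ± 0.17, edgeR adjusted p = 0.0019), beside the higher fat genes given above. Banf1, which bridges chromatin to LEM-domain proteins such as emerin, rose by 0.34 ± 0.07 (adjusted p = 0.00117), and Tmem43, an emerin-binding protein, rose by 0.32 ± 0.07 (adjusted p = 0.00118). The other riser was Nrm (0.46, adjusted p = 0.0441), and those that fell were Cbx5, which encodes the heterochromatin protein HP1 alpha (-0.34, adjusted p = 0.00263), Tmpo, which encodes the lamina-associated polypeptides LAP2 (-0.32, adjusted p = 0.00664), and Plpp7 (-0.39, adjusted p = 0.0427); these 4 genes were picked once their values were known.

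With age, 3 of the same 15 genes fell, beside 5.38% of all genes, and the other 12 did not pass (median -0.04, against 0.00834 over all genes). They were Banf1 (-0.28, edgeR adjusted p = 0.0183), Hdac3 (-0.20, adjusted p = 0.0298) and Cbx1 (-0.22, adjusted p = 0.0424), and Hdac3 and Cbx1 were named after their values were seen. Banf1 thus moved in opposite directions in HGPS and in aged WT, and HGPS was above 24-mo WT by 0.63 ± 0.08 on the log2 scale (adjusted p = 2.21e-06) with all mice apart.

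Of the 14 other LINC and perinuclear genes, 10 had enough counts to test, and Sun3 and Sun5 were at 0 counts in all mice. In HGPS 4 rose and 2 fell, beside 22% and 21.2% of all genes (median -0.08, against 0.00261). Spag4, which encodes a further SUN-domain protein, was 2.06-fold higher at a very low level (0.682 ± 0.232 to 1.42 ± 0.313 CPM, log2 fold change 1.04 ± 0.31, edgeR adjusted p = 0.0108). Lrmp, a KASH-domain gene of lymphoid cells, rose from 2.05 ± 0.892 to 4.13 ± 0.581 CPM (log2 fold change 0.98 ± 0.24, adjusted p = 0.00268), while 2 of the 4 tested lymphocyte markers were higher too (list sum 20.4 to 42 CPM against 9.74 to 19.1). Fhl1, a LIM-domain gene of muscle, fell by 0.36 on the log2 scale (adjusted p = 0.000575). Kif5b (0.20), Tor1aip2 (0.16) and Tor1b (-0.26) also passed (adjusted p = 0.0203, 0.0365 and 0.00258) and were named after their values were seen. With age, 1 of the 10 rose and 1 fell, beside 6.29% and 5.38% of all genes. Syne3, which encodes the nesprin that binds plectin, rose by 0.37 (adjusted p = 0.0314) and Tor1a fell by 0.25 (adjusted p = 0.0497), also named after their values were seen.

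Of the 6 genes listed for the prenyl processing of lamins, 1 fell in HGPS, beside 21.2% of all genes. The other 5 did not pass (median -0.09, against 0.00261). The gene that fell was Fntb, the beta subunit of farnesyltransferase, at 9.85 ± 1.27 CPM in 2-mo WT and 7.37 ± 0.998 CPM in HGPS (log2 fold change -0.42 ± 0.12, edgeR adjusted p = 0.00643). With age 1 of the 6 rose, beside 6.29% of all genes, namely Icmt, the methyltransferase that acts after farnesylation (0.16, adjusted p = 0.0386). Fntb and Icmt were named after their values were seen.

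Across the 18 mice, with each group's mean taken off, the genes most like Lmna in log2 CPM were Rusc2 (Pearson r = 0.968), Cep170b (0.946), Igsf8 (0.946), Rps6ka4 (0.942) and Fkbp8 (0.941), out of 10707 genes averaging 100 counts or more, of which 12.2% had an r over 0.5. For Lmnb1 they were Mbtps2 (r = 0.852), Ptger3 (0.783), Fabp5 (0.782), Nrp2 (0.781) and Klb (0.759), with 2.77% over 0.5. Of the pairs within the 10 genes, Syne1 and Syne2 were closest (r = 0.872), followed by Lmnb2 with Sun2 (0.702) and Lmna with Sun2 (0.70). Lmna and Lmnb1 had an r of -0.13. These are descriptions over libraries that also share differences in depth, tissue make-up and transcript length.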

How the data were processed

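Total RNA of 18 descending aortas was sequenced from both ends as stranded libraries without ribosomal RNA. The authors quantified transcripts with salmon against GENCODE M23 (GRCm38.p6) and summed them by gene with tximport, and the deposited values are estimated counts per gene, as whole numbers and without normalization. Whether rounding made them whole is not stated, and the submitters' processing notes also name Bowtie 0.12.2, with no role given. Symbols, lengths, coordinates and sequences came from GENCODE M21 on GRCm38, which held 54107 of the 54281 identifiers.

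A gene was tested if 6 mice or more had 10 counts or more, which held for 15210. The quasi-likelihood test of edgeR 4.0.16 in R 4.3.3 was applied after TMM normalization, with the 3 groups fitted together (15 residual degrees of freedom) and Benjamini-Hochberg adjustment. A standard error is the absolute log2 fold change over the root of F. CPM are TMM-scaled, and log2 CPM used a prior count of 2. A level per kb divides CPM by the union of annotated exons. Ratios used a prior count of 0.5 and exact permutation tests (SciPy 1.17.1). Totals were 12413229 to 30844775 counts, and intervals cover the spread between mice. No library matched another of its group within sampling noise (chi-square of 7.64 to 93.6 per degree of freedom in 45 pairs). Replicate numbers were taken from the labels. The members, lists and tests were chosen with earlier results of these data known.

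All 10 genes were named. Partner genes were named if past the test and 1.5-fold changed, then by lowest p up to 6, and for Lmna and Lmnb1 the 5 genes of highest correlation. On counts simulated for HGPS against 2-mo WT (14965 genes), the fit recovered 57% of 100 genes changed 1.5-fold and 77.6% of 98 changed 2-fold, with 11 false calls. The alternatives were DESeq2 1.42.0, other scalings and filters, 2 groups alone, a replicate block, marker scores as covariates, each mouse left out, another gene length and a lowess trend on transcript length taken off. Immunostaining and mechanical data were not analysed here.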

Additional observations from a re-analysis of the deposited data

Results flagged for a closer look

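In 48 sets of 6 mice (10 genes and 6 ratios in 3 groups), 4 held a mouse far from the others by Dixon's criterion, by which chance marks about 1 in 20. HGPS replicate 5 had a log2 ratio of Lmnb1 to Lmna of -6.99, below the -6.04 to -5.59 of its group, and of Lmnb1 to Lmnb2 of -1.52, against -0.38 to 0.04. It held 62 Lmnb1 counts, so both values rest on the same low count. HGPS replicate 4, the deepest library, had a log2 ratio of Lbr to Lmna of -2.28, against -3.17 to -2.90 in the other HGPS mice. In 24-mo WT replicate 1 the log2 ratio of Syne1 to Syne2 was 0.74, against 0.26 to 0.41, and this mouse also had the highest level of long transcripts.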

How the results depend on the processing

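Apart from the fits with marker scores and the study's cut-offs, Lmna, Lmnb2, Sun1, Syne1 and Syne2 kept their direction and their call in HGPS against 2-mo WT under every alternative run, with Lmna at 0.42 to 0.54 on the log2 scale. With brown fat and skeletal muscle scores as covariates Lmna had an adjusted p of 0.0991 (0.44), and with macrophage and cell cycle scores 0.23 (0.65), where 0 genes of the 10 passed in either HGPS contrast (edgeR, 2 at an unadjusted p under 0.05 in each; DESeq2 was not run with scores). In edgeR the study's cut-offs left 1, 0 and 2 of the 10 in HGPS against 2-mo WT, 24-mo WT against 2-mo WT and HGPS against 24-mo WT. In DESeq2 Syne1 also met them in HGPS against 2-mo WT, and Lmnb1 in HGPS against 24-mo WT. The count with age, 1, was 0 without a count filter, with only the 2 groups, with brown fat and skeletal muscle scores, and with a replicate block, in which Lmnb2 was at 0.41 (adjusted p = 0.0725), with 2 genes at an unadjusted p under 0.05 in each of these edgeR fits and 1 call in DESeq2. Leaving out 1 mouse gave 5 to 6, 0 to 1 and 5 to 6 genes. With 1 mouse fewer, the smallest p that the permutation test allows is larger. A ratio count of 0 thus need not mean dependence on that mouse. The ratio calls were 0 to 3 in each comparison instead of 1, 2 and 1. They were 0 in HGPS against 2-mo WT without HGPS replicate 1, 2, 3 or 6 or 2-mo WT replicate 1, 3, 4 or 5, and 3 without HGPS replicate 4; 0 with age without 24-mo WT replicate 2 to 6 or 2-mo WT replicate 1, 3, 4 or 5; and 0 in HGPS against 24-mo WT without HGPS replicate 1, 2, 3 or 6 or 24-mo WT replicate 2 to 6, and 3 without HGPS replicate 5.

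Values of genes that did not pass changed sign as follows. In HGPS against 2-mo WT, Emd was 0.0074 with library totals, 0.0016 with a filter of 50 counts and 0.18 with brown fat and skeletal muscle scores. Lmnb1 was -0.0945 with those scores and -0.57 with macrophage and cell cycle scores, which also gave Lbr -0.0423 and Sun2 0.077. With age, Lmna was -0.0031 without a filter, -0.0025 with the length trend taken off, -0.0902 with brown fat and skeletal muscle scores and -0.0266 with macrophage and cell cycle scores; Syne2 was -0.11 with the length trend off and -0.0508 with brown fat and skeletal muscle scores, and Zmpste24 -0.0069 with macrophage and cell cycle scores. In HGPS against 24-mo WT, Emd was -0.10 with the length trend off, and macrophage and cell cycle scores turned Sun2 to 0.0719 and Lmnb1, which had passed, to -0.15. With 1 mouse left out, Emd ranged from -0.0519 to 0.0234 in HGPS against 2-mo WT and from -0.0132 to 0.0747 against 24-mo WT, and with age Lmna ranged from -0.0788 to 0.0609, Syne2 from -0.0801 to 0.10 and Zmpste24 from -0.0202 to 0.0561. The causes were not tested. The labels do not say whether replicate numbers pair the mice. The deviations of same-numbered mice correlated at -0.02 to 0.17, -0.16 to 0.08 and -0.10 to 0.07 in the 3 comparisons. Of 6 mice, 2, 1 and 1 correlated best with their own number. Whether same-numbered mice shared a batch was not tested, and the replicate block changed no other call. Low counts limit Lmnb1, Spag4, Lrmp, Nrm and the skeletal muscle score.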
